A study of Mus musculus with 12 samples.

Results

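The genes described here are 7 listed under thymic exit and homing. These are the chemokine receptors Ccr7, Ccr9 and Cxcr4, the sphingosine-1-phosphate receptor S1pr1 (also written Edg1), the transcription factor Klf2, and the surface glycoproteins Cd44 and Emb. Whether Emb acts in migration was not tested. The 7 genes were chosen by gene symbol, out of 8251 genes that the array's annotation names by 1 symbol. Their symbols were carried by 11 probe sets. Expression had been measured on 12 Affymetrix mouse arrays of thymocytes at day 6 of RTOC, a reaggregate culture in which thymocytes develop among thymic stromal cells. The arrays fall into 3 groups of 4. HY_high and HY_low were thymocytes with the HY receptor, a transgenic T cell receptor whose ligand is a peptide of the male gene Smcy, cultured with Smcy peptide at 1e-05 M and at 1e-07 M. OT1 was thymocytes with the OT1 receptor, a transgenic receptor for an ovalbumin peptide, with no peptide named. Thus HY_high and HY_low share a receptor and differ in dose, whereas each differs from OT1 in receptor and, as far as the labels go, in peptide. The sample titles also carry different letters, aa for HY_high and ab for HY_low, whose meaning is not given, so dose cannot be told apart from what they mark. Whether cells were sorted, whether animals were pooled, and whether the arrays of a group came from separate cultures is not stated, so p-values measure the spread between arrays, which may be technical.

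Migration in the thymus follows a sequence of receptors. Cxcr4, the receptor for Cxcl12, and Ccr9, the receptor for Ccl25, act on immature thymocytes in the cortex, whereas Ccr7, the receptor for Ccl19 and Ccl21, draws positively selected thymocytes into the medulla. Mature cells then express Klf2, which switches on S1pr1, and S1pr1 senses the sphingosine-1-phosphate of blood and lets the cells leave. Cd44, a receptor for hyaluronan, is high on early progenitors and on activated or memory T cells, and Emb (embigin) is an immunoglobulin superfamily glycoprotein related to basigin that binds monocarboxylate transporters.

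Signals are linear intensities, with 3.71 as their median; 15.3% of them stood at 1, the lowest value. Array medians lay between 3.33 and 3.97, and the share of values at 1 between 3% and 22.5%. A probe set was tested with limma if its mean over the 12 arrays, on a log2 scale, lay above an intensity of 1.76. In all, 8695 probe sets were tested, among them 6 of the 11 probe sets of the members, 1 each for Ccr7, Ccr9, Cxcr4, S1pr1, Klf2 and Emb. The number of arrays limits the precision, and in bulk RNA fewer cells of a type and less RNA per cell cannot be told apart. Arrays carry the numbers 1 to 4 in their titles, and arrays with the same number were alike. Over the tested probe sets, the 12 pairs with the same number in different groups had deviations from their group means that correlated at 0.341 or more, against at most 0.163 for the 36 pairs with different numbers. Where blocking on the number changes a call, that fit is given too. Of the T cell markers, Cd3g, a chain of the T cell receptor complex, had geometric means of 231.0 in HY_high, 273.4 in HY_low and 184.0 in OT1, and Thy1 had 234.2, 554.9 and 541.2 in the same groups, whereas Cd4 was dim at 4.86, 4.68 and 6.18.

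In HY_high against HY_low, Emb was higher and Ccr7 lower on every array, and only Emb passed a test, with the replicate number as a block. None of the 6 tested probe sets passed limma at an adjusted p of 0.05 without the block, where 0.023% of all tested probe sets did, and 2 had an unadjusted p under 0.05, against 2.96% of all. With the block 1 of the 6 passed, against 0.345% of all. Groups did not overlap for 2 of the 6, Emb and Ccr7, against 2.02% of all tested probe sets. Results of these data were known when the members were chosen, so these shares describe the genes and do not test the list. The median log2 difference over the 6 was -0.48, beside 0.01 over all tested probe sets.

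Emb had intensities of 166.83, 191.63, 267.47 and 217.25 on HY_high arrays 1 to 4, against 98.34, 76.54, 113.38 and 50.47 on HY_low arrays 1 to 4. OT1 arrays 1 to 4 had 129.3, 146.93, 142.06 and 66.33. All 4 HY_high arrays thus lay above all arrays of both other groups, while HY_low and OT1 overlapped. The geometric mean was 207.6 in HY_high and 81.0 in HY_low, 2.56-fold higher (log2 difference 1.36, with an SE of 0.40 from 4 arrays in each group, and a limma adjusted p of 0.996). With the number as a block the same difference had an SE of 0.24 and a limma adjusted p of 0.0155. The log2 differences within numbers 1 to 4 were 0.76, 1.32, 1.24 and 2.11, so that Emb was higher in HY_high within 4 of 4 numbers, as were 9.81% of all tested probe sets. The call with the block depended on which numbers were included. It was kept without number 1 (adjusted p = 0.0315) but lost without number 2 (0.0986), number 3 (0.127) or number 4 (0.154), where the log2 difference lay between 1.11 and 1.56. It was also lost in the block fit with values under 8 raised to 8 (adjusted p = 0.124). All 12 Emb values exceed 8, so this floor could not change the difference of 1.36.

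Both levels of Emb lie well above the bottom of the scale, and the difference is thus not one between dim values. However, it comes from 1 probe set, 101560_at. The other Emb probe set, 162068_r_at, lay between 1 and 1.19 on all 12 arrays and measured nothing that could be compared. Of 9 T cell markers tested in the same comparison, 1 was called lower and 0 higher, Cd8b1, the beta chain of CD8, or 2 lower with the block, Cd8b1 and Thy1. Their summed intensity was 732 to 1341 in HY_high and 1615 to 3435 in HY_low. In geometric means Cd8b1 was at 4.52 in HY_high and 644.2 in HY_low, and Cd8a, the alpha chain of CD8, at 156.9 in HY_high and 339.1 in HY_low without passing. None of the CD3 chains passed, with -0.04 for Cd3d, -0.24 for Cd3g and -0.25 for Cd3e as log2 differences. For 5 markers of double-positive thymocytes the sum was 14.8 to 17.1 in HY_high and 21.1 to 35.5 in HY_low. All 5 were dim, and 0 of the 4 tested were called with or without the block. Rag1 had geometric means of 2.58 in HY_high and 7.00 in HY_low, and Dntt 3.67 and 9.13. Cd4 (4.86 and 4.68) and Ptcra (1.93 and 1.96) hardly differed between the same groups. For 4 NK cell markers the sums overlapped, at 96.3 to 327.4 in HY_high and 16.8 to 121.3 in HY_low. Klrd1 accounts for most of the NK sum, with 198.0 in HY_high and 42.9 in HY_low. The other NK markers were dim in these groups, with Klrc1 at 1.92 and 3.28, Gzma at 3.71 and 3.62, and the NK receptor gene Ncr1 at 1.09 and 1.26. The part of these markers in the Emb difference was not tested. Sums overlapped between HY_high and HY_low for markers of macrophages and dendritic cells (30.7 to 46.0 against 28.8 to 65.2), B cells (150.4 to 518.6 against 77.7 to 625.8) and fibroblasts (47.1 to 83.0 against 54.2 to 91.4). They overlapped also for thymic epithelium (8.65 to 26.0 against 8.38 to 18.7) and erythroid cells (5.54 to 14.2 against 4.48 to 17.6). No gene of these lists was at 1 on all 12 arrays.

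**Figure D1:**
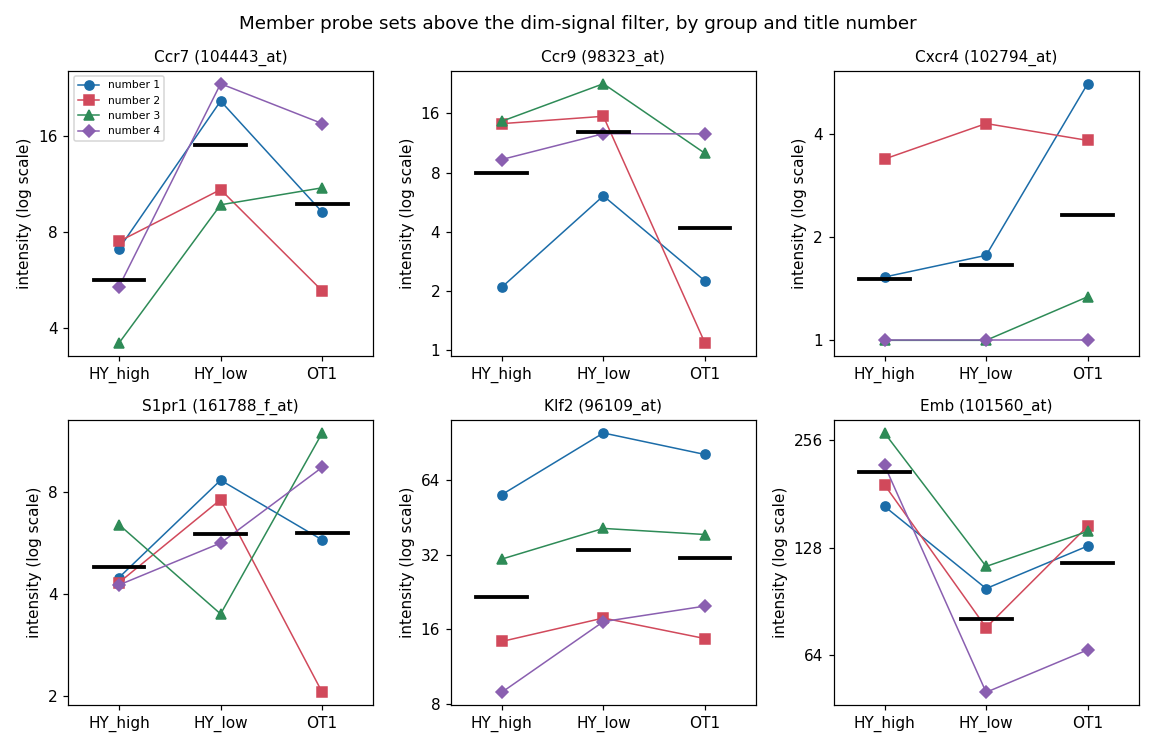
Intensity (log scale) of the 6 tested member probe sets in HY_high, HY_low and OT1, with 1 symbol and line per title number and a black bar at each group's geometric mean (n = 4). Emb lies highest in HY_high within every number, at a geometric mean of 207.6 against 81.0 in HY_low and 115.7 in OT1, while Klf2 keeps the order of the numbers more than that of the groups.

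Relative to OT1, Emb was also higher in HY_high without passing. The geometric mean was 207.6 in HY_high and 115.7 in OT1, a log2 difference of 0.84 ± 0.40 SE whose limma adjusted p was 1, or 0.102 under blocking. The groups did not overlap, as for 2.53% of all tested probe sets. In HY_low the geometric mean was 81.0, against the same 115.7 in OT1, a log2 difference of -0.51 ± 0.40 (adjusted p = 1 in limma, or 0.58 with blocking). The value was lower in HY_low within 4 of 4 numbers, as for 7.38% of all tested probe sets. The order of the levels was therefore HY_high, OT1, HY_low, and the neighbours OT1 and HY_low overlapped. Within the numbers, HY_low was lower than OT1 by log2 differences of -0.40, -0.94, -0.33 and -0.39. The 95% interval with the block ran from -1.01 to -0.015, before adjustment over all tested probe sets. Both comparisons use the same OT1 arrays, and each shares an HY group with the comparison of doses, so they are not independent.

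Over the 12 arrays, the profiles most like that of Emb belonged to Laptm4a, a lysosomal membrane protein gene, and to Lage3. Likeness was measured as the root mean square difference between log2 profiles, each centred on its mean, over 4091 probe sets of other genes that exceeded 8 in at least 1 group. It was 0.36 for both Laptm4a and Lage3, where the median over all was 0.97 and the Emb profile itself varied by 0.69 around its mean. Laptm4a had geometric means of 68.4 in HY_high, 26.7 in HY_low and 36.8 in OT1.

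Sequences before the start sites are shown for Emb, Klf2 and Ccr9, the tested members with a RefSeq window that differed in 1 direction within every number between HY_high and HY_low. Windows of 300 bases, 250 before and 50 after the annotated start (RefSeq, GRCm38.p6), were matched by symbol for 5 of the 7 genes, these 3 and Cxcr4 and Cd44. Both strands were searched for CACCC, the box that Klf factors bind, and for GTAAACA, a forkhead box core. Capitals mark the CACCC box, which reads GGGTG where it lies on the opposite strand.
Emb, chr13:117220323-117220622, plus strand: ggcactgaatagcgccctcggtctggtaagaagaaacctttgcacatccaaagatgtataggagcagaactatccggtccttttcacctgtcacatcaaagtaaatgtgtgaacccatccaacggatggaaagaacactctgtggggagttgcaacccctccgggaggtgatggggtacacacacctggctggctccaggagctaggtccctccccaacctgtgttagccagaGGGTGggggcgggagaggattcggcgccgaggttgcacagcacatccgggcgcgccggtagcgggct
Klf2, chr8:72318812-72319111, plus strand: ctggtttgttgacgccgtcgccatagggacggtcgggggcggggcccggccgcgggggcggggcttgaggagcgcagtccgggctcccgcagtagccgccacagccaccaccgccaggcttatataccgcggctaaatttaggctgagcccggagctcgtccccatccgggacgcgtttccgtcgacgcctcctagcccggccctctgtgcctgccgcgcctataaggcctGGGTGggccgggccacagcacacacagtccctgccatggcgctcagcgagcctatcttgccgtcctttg
Ccr9, chr9:123766961-123767260, plus strand: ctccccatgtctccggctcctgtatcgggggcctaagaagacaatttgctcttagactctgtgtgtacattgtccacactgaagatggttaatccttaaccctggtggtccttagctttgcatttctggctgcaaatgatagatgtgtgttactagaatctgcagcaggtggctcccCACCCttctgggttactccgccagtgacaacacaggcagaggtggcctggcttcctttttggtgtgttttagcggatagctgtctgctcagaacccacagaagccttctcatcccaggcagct
Each of the 3 windows held 1 CACCC box, on the opposite strand from position -17 in Emb and -19 in Klf2, and on the printed strand from position -73 in Ccr9. Cxcr4 held 1 box as well, from position -219, and Cd44 held 0. The box is common, being found in 57.5% of 32851 windows of the same length. None of the 5 windows held GTAAACA, which 3.65% of all windows did, and neither motif overlaps the other.

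Ccr7, the receptor for medullary entry, was lower in HY_high than in HY_low without passing. Intensities were 7.08, 7.46, 3.58 and 5.38 on HY_high arrays 1 to 4, against 20.57, 10.85, 9.72 and 23.31 on HY_low arrays 1 to 4. OT1 arrays 1 to 4 had 9.22, 5.22, 10.99 and 17.48. All HY_high arrays lay below all HY_low arrays, and OT1 overlapped both groups. The geometric mean was 5.65 in HY_high and 15.0 in HY_low (log2 difference -1.41 ± 0.49 SE, 95% interval -2.43 to -0.38). The limma p was 0.00991 before adjustment and 1 after it, or 0.159 after it with the block, and under no alternative was the adjusted p below 0.112. Within numbers 1 to 4 the log2 difference was -1.54, -0.54, -1.44 and -2.11, lower in 4 of 4, as for 9.76% of all tested probe sets.

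All 4 HY_high values of Ccr7 lie below 8, near the median intensity of the arrays. With values under 8 raised to 8, the log2 difference was -0.91. Against OT1, the log2 difference was -0.80 ± 0.49 in HY_high (limma adjusted p = 1, geometric means 5.65 in HY_high and 9.81 in OT1) and 0.61 ± 0.49 in HY_low (adjusted p = 1, geometric means 15.0 in HY_low and 9.81 in OT1). The order was thus HY_low, OT1, HY_high, the reverse of that for Emb, and each neighbouring pair overlapped. The profiles most like Ccr7 over the 12 arrays were those of Pgls, an enzyme of the pentose phosphate pathway, and Ada, adenosine deaminase, with root mean square differences of 0.45 and 0.47, where the median over all was 1.05. Ada had geometric means of 11.5 in HY_high, 18.9 in HY_low and 13.9 in OT1.

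Ccr9 had a higher geometric mean in both HY groups than in OT1, and 1 array carried much of that. Intensities were 2.08, 14.2, 14.6 and 9.32 on HY_high arrays 1 to 4 and 6.08, 15.48, 22.69 and 12.62 on HY_low arrays 1 to 4. OT1 arrays 1 to 4 had 2.24, 1.08, 10.02 and 12.59, so that all 3 groups overlapped. The geometric mean was 12.8 in HY_low and 4.18 in OT1, a log2 difference of 1.62 ± 0.78 SE (adjusted p = 1 in limma, or 0.382 with blocking, 95% interval -0.02 to 3.25). Within numbers 1 to 4 the difference was 1.44, 3.84, 1.18 and 0.003, higher in 4 of 4, where 9.73% of all tested probe sets were. Number 4 contributed almost nothing and number 2 most. OT1 array 2 had 19% of all its values at 1, against 5.18% on HY_low array 2 and 3% on HY_high array 2, and the part of this in the Ccr9 difference was not tested. Without OT1 array 2 the log2 difference was 0.97, and without number 2 altogether it was 0.87. With values under 8 raised to 8 it was 0.53.

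In HY_high the geometric mean of Ccr9 was 7.96, against 4.18 in OT1, a log2 difference of 0.93 ± 0.78 (limma adjusted p = 1). Within numbers 1 to 4 this difference was -0.11, 3.72, 0.54 and -0.43, higher in 2 numbers and lower in 2. Without number 2 it was 0.00, and with values under 8 raised to 8 it was 0.23. Between the doses the geometric mean was 7.96 in HY_high and 12.8 in HY_low (log2 difference -0.69 ± 0.78, adjusted p = 1). Ccr9 was lower in HY_high within 4 of 4 numbers at -1.55, -0.12, -0.64 and -0.44, as for 9.76% of all tested probe sets. Without HY_high array 1 the log2 difference between the doses was -0.04, and with values under 8 raised to 8 it was -0.30. Trappc12 (root mean square difference 0.65) and the metalloprotease gene Adam19 (0.74) had the profiles most like that of Ccr9, where the median over all was 1.45.

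Cxcr4 was dim throughout. It stood at 1.53, 3.38, 1 and 1 on HY_high arrays 1 to 4, at 1.77, 4.29, 1 and 1 on HY_low arrays and at 5.61, 3.83, 1.34 and 1 on OT1 arrays. The arrays numbered 4 were all at the lowest value and those numbered 2 all above 3. Over all probe sets, 20.8% to 22.5% of values stood at 1 on arrays numbered 3 and 4. The share was 8.5% to 8.8% on arrays numbered 1. On HY_high, HY_low and OT1 arrays numbered 2 it was 3%, 5.18% and 19%. The part of these shares in the Cxcr4 levels was not tested. Cxcr4 followed the number more than the group. Its log2 difference was -0.14 ± 0.63 for HY_high against HY_low, -0.48 ± 0.63 for HY_low against OT1 and -0.62 ± 0.63 for HY_high against OT1 (limma adjusted p = 1 for each). With 5 of 12 arrays at 1, these differences cannot be read as sizes.

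Klf2, the factor upstream of S1pr1, differed far more between title numbers than between groups. It had 56.02, 14.31, 30.78 and 8.92 on HY_high arrays 1 to 4, against 99.42, 17.79, 40.94 and 17.21 on HY_low arrays 1 to 4. OT1 arrays 1 to 4 had 81.41, 14.7, 38.68 and 19.88. In each group the array numbered 1 was highest and the array numbered 3 next. The geometric mean over the groups was 76.8 in number 1, 15.5 in number 2, 36.5 in number 3 and 14.5 in number 4. Numbers accounted for 90.2% of the sum of squares of Klf2 over the 12 arrays, more than for 95.8% of all tested probe sets, whose median was 52.8%. Groups accounted for 6.9%. What the numbers mark is not stated. A sign of RNA quality, the 3' signal of the Gapdh controls over their 5' signal, was on a log2 scale 4.57 to 4.87 in number 1, 5.60 to 6.26 in number 2, 4.68 to 5.48 in number 3 and 2.94 to 3.27 in number 4. The 3' signal was thus the higher on all 12 arrays. The part of this ratio in the levels of Klf2, or of any other member, was not tested.

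Within the numbers Klf2 was lower in HY_high than in HY_low in 4 of 4, as for 9.76% of all tested probe sets. The log2 differences were -0.83, -0.31, -0.41 and -0.95. The geometric mean was 21.7 in HY_high and 33.4 in HY_low (log2 difference -0.63, SE 0.69, limma adjusted p = 1). With the block the SE was 0.25, the 95% interval ran from -1.15 to -0.10 and the unadjusted p was 0.0219, but the limma adjusted p was 0.366. Klf2 was also lower in HY_high than in OT1 within 4 of 4 numbers, as for 8.74% of all tested probe sets (geometric means 21.7 in HY_high and 31.0 in OT1, a log2 difference of -0.52 with a limma adjusted p of 1, or 0.431 with the block). HY_low and OT1 had 33.4 and 31.0 (log2 difference 0.11, 95% interval with the block -0.41 to 0.63, limma adjusted p = 1). The profiles most like that of Klf2 were those of Cdk2ap2 (root mean square difference 0.38) and Ppp1r18 (0.39), where the median over all was 1.24.

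**Figure D2:**
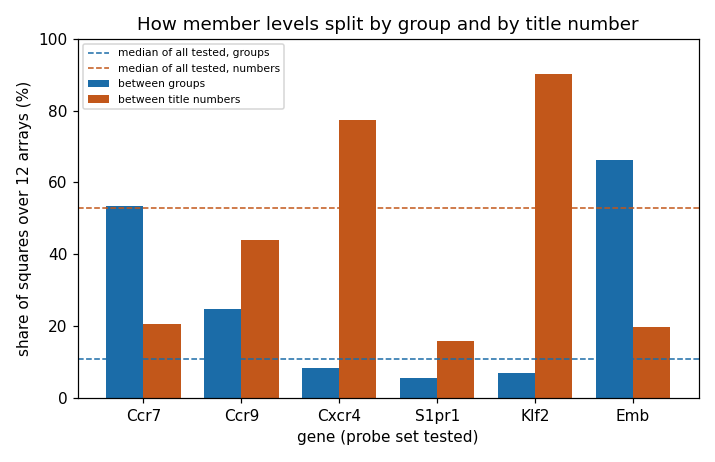
Share of the sum of squares over the 12 arrays that lay between the 3 groups (blue) and between the 4 title numbers (orange) for each tested member probe set, with dashed lines at the medians over all tested probe sets (10.7% and 52.8%). Emb and Ccr7 split mainly by group, at 66.3% and 53.4%, whereas Klf2 and Cxcr4 split mainly by number, at 90.2% and 77.4%.

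S1pr1, the egress receptor, was measured near the bottom of the scale. Its tested probe set, 161788_f_at, of a type that can read several members of a family, had 4.47, 4.32, 6.4 and 4.25 on HY_high arrays 1 to 4, against 8.66, 7.59, 3.49 and 5.65 on HY_low arrays 1 to 4. OT1 arrays 1 to 4 had 5.77, 2.05, 11.93 and 9.45. The groups overlapped in every comparison. The log2 difference was -0.33 ± 0.54 for HY_high against HY_low, -0.01 ± 0.54 for HY_low against OT1 and -0.34 ± 0.54 for HY_high against OT1 (limma adjusted p = 1 for each). The lower ends of the 95% intervals were -1.46, -1.15 and -1.47, so that a level 2-fold lower lay within each. The other probe set, 101953_at, lay at 1 on 9 of 12 arrays and at most at 2.57, and was not tested. Its values above 1.5 were on OT1 array 2 and HY_low array 2.

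Cd44 was not measurable here. Its 3 probe sets all fell below the filter, with the highest values at 3.44 (HY_high array 3) for 103005_s_at, 2.25 (HY_high array 3) for 103004_r_at and 2.46 (HY_low array 2) for 103003_i_at. For the probe set 103005_s_at, the geometric mean was 1.79 in HY_high, 1.41 in HY_low and 1.40 in OT1. Values this close to the lowest one set no level for Cd44 RNA and give no direction between the groups.

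**Figure D3:**
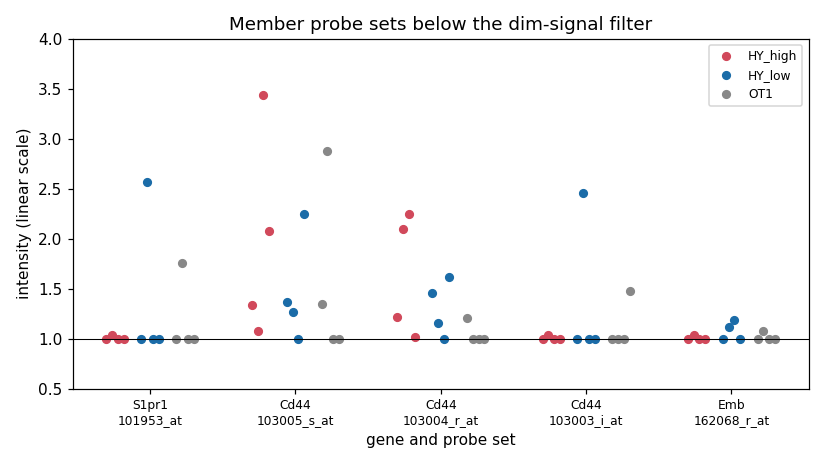
Intensity (linear scale) of the 5 member probe sets below the filter on dim signals, with 1 point per array and the lowest possible value of 1 drawn as a line. No array exceeded 3.44, and for 101953_at (S1pr1), 103003_i_at (Cd44) and 162068_r_at (Emb) at least 2 of the 4 arrays sat at 1 in every group.

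In HY_low against OT1 and in HY_high against OT1, 0 of the 6 tested probe sets passed limma at an adjusted p of 0.05, with or without the block. Over all tested probe sets 0.023% passed in HY_low against OT1 and 0.173% in HY_high against OT1, or 0.092% and 1.36% with the block. No member had an unadjusted p under 0.05 in either comparison, where 2.65% and 4.08% of all tested probe sets did. Groups without overlap were found for 0 members in HY_low against OT1, where 1.63% of all had them, and for Emb alone in HY_high against OT1. Emb was also the member higher within 4 of 4 numbers in HY_high against OT1, as were 10.4% of all. The smallest were 0.0518 for Emb in HY_high against OT1 and 0.0528 for Ccr9 in HY_low against OT1. In limma with the block, 2 members fell under 0.05 unadjusted in HY_low against OT1, Ccr9 (0.00892) and Emb (0.044). In HY_high against OT1, 1 did, Emb (0.00238). The exact share of all 8695 tested probe sets under 0.05 unadjusted with the block was not computed, but ranks by this limma p bound it. In HY_low against OT1, Emb ranked 656 and Ccr7 (0.129) ranked 1562, so the number under 0.05 lay between these ranks. In HY_high against OT1 it lay between 203, the rank of Emb, and 1063, that of Klf2 (0.0527). The counts of 2 of 6 and 1 of 6 exceed such shares. The members were chosen with results known, so this does not test the list.

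**Figure D4:**
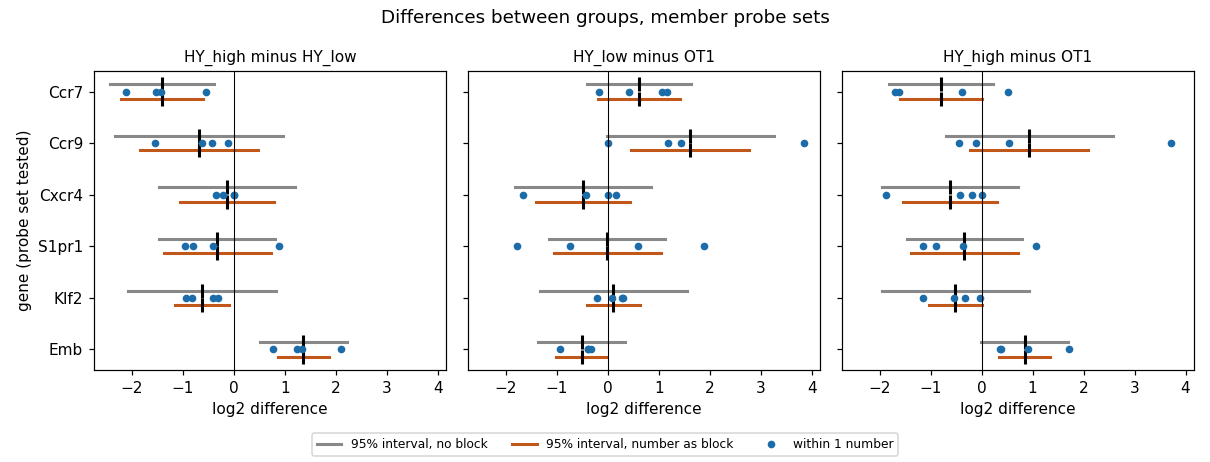
Log2 differences of the 6 tested member probe sets in the 3 comparisons, with black marks for the estimate, 95% intervals from limma without the block (grey) and with it (orange), and a blue point for each title number. Without the block only Emb and Ccr7 in HY_high against HY_low have intervals that leave out 0 (0.51 to 2.21 and -2.43 to -0.38), before any adjustment for the 8695 probe sets tested.

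Of 54 other genes of lymphocyte migration, covering adhesion and rolling, other chemokine receptors, sphingosine-1-phosphate metabolism and receptors, egress regulators, and G protein and cytoskeletal genes, 44 had a probe set with 1 symbol and 38 were tested. None passed limma without the block in any comparison, where 0.023%, 0.023% and 0.173% of all tested probe sets did. Of the 38, 2, 2 and 1 had an unadjusted p under 0.05 in HY_high against HY_low, HY_low against OT1 and HY_high against OT1, beside 2.96%, 2.65% and 4.08% of all tested probe sets. With the block 1 of the 38 passed in HY_high against OT1, beside 1.36% of all. It was Rgs16, a regulator that shortens G protein signals from chemokine receptors. Its geometric mean was 17.1 in HY_high and 3.28 in OT1, a log2 difference of 2.39 ± 0.66 (adjusted p = 0.321 in limma, or 0.0259 with blocking). In HY_high its arrays ran from 11.6 to 38.3, against 1 to 12.4 in OT1, so the groups overlapped slightly. The median log2 difference over the 38 genes was 0.28 for HY_high against HY_low, 0.04 for HY_low against OT1 and 0.11 for HY_high against OT1, beside 0.01, 0.01 and 0.02 over all tested probe sets.

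Among the other chemokine receptors, 4 of 8 were tested, and in HY_high against HY_low 4 of the 4 lay above 0 (median log2 difference 0.93), without a call. All but Cxcr3 were dim. Geometric means in HY_high and HY_low were 2.42 and 1.34 for Ccr2, 8.997 and 4.443 for Ccr6, and 5.56 and 3.84 for Cx3cr1. Below the filter, Ccr1 (1.18 and 1.89) and Ccr4 (1.14 and 1.93) were lower in HY_high. Ccr8 (1.36 and 1.18) was higher, and Cxcr5 (1.707 and 1.702) hardly differed. Cxcr3, the receptor for interferon-induced chemokines, averaged 50.1 in HY_high and 16.8 in HY_low as geometric means (log2 difference 1.57 ± 0.87, limma adjusted p = 1, or 0.0897 with the block). Its arrays ran from 19.4 to 132.1 in HY_high and from 2.25 to 91.9 in HY_low. Il7r, the interleukin-7 receptor chain that naive T cells regain as they mature, averaged 75.2 in HY_high and 25.8 in HY_low in the same way (log2 difference 1.54 ± 0.69, adjusted p = 1, or 0.121 with the block), and 79.4 in OT1. Of 8 adhesion genes tested, 4 lay above and 4 below 0 with none called, and their median log2 difference was 0.11. They ran from Itgb7, the beta chain of the gut-homing integrin, at 156.3 in HY_high and 240.6 in HY_low (log2 difference -0.62 ± 0.75, adjusted p = 1), to Itga4, an alpha chain that pairs with it, at 13.3 in HY_high and 6.5 in HY_low (1.03 ± 0.56, adjusted p = 1). The 6 tested genes of sphingosine-1-phosphate signalling had a median of 0.16, the 8 egress regulators 0.29 (Il7r among them) and the 12 G protein and cytoskeletal genes -0.06.

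The ligands and partners of the members showed no calls either, with 0 of 8 tested genes passing limma with or without the block in each comparison. Cxcl12, the ligand of Cxcr4, was at 1.89 in HY_high, 1.80 in HY_low and 1.69 in OT1, and Ccl25, the ligand of Ccr9, fell below the filter. Bsg, which encodes basigin, the relative of embigin, had 7.31 in HY_high and 9.17 in HY_low (log2 difference -0.33 ± 0.61, adjusted p = 1). The transporter genes Slc16a1 and Slc16a7 were dim, at 1.81 and 1.30 in HY_high and at 1.84 and 1.10 in HY_low. Msn, encoding the linker moesin that ties Cd44 to the cytoskeleton, had 109.4 in HY_high and 54.7 in HY_low (log2 difference 1, SE 0.77, adjusted p = 1, or 0.157 with the block).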

How the data were processed

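The authors deposited 1 table of intensities on a linear scale for 12488 probe sets on 12 arrays; their background correction, summary and scaling are not given in the sources used here. Values were used as deposited on a log2 scale. Control probe sets (66) were left out, and tests covered those of the remaining 12422 whose mean log2 exceeded the 30th percentile. Of these, 10833 matched 1 gene in the platform annotation, 396 several and 1193 none, and symbols were updated by gene ID. Limma (version 3.58.1, under R 4.3.3) was fitted once with 3 group means with 9 residual degrees of freedom, empirical Bayes moderation with an intensity trend, two-sided tests and Benjamini-Hochberg adjustment over 8695 probe sets. The fit was tested on simulated data. The title number as a block left 6 residual degrees of freedom, and the pairing comes from the data: all 12 arrays had their highest correlation with an array of the same number. In lists, the brightest probe set with 1 symbol stood for its gene. All member probe sets are named, and the genes of like profile are the 2 nearest to each member that exceeded 8 in a group. The members and lists were chosen with earlier results of these data known. Alternatives changed the filter, floor, normalization, weights, variance trend, groups fitted, pairing and arrays. Protein sequences were not used here.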

Additional observations from a re-analysis of the deposited data

Results flagged for a closer look

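Each of the 33 combinations of a member probe set and a group was checked for an array far from the other 3. The measure was the ratio of its gap to the range of the group on the log2 scale. Its cutoff is one that chance exceeds in about 1 of 20 groups of untied values, and 11 combinations exceeded it. One lay at a clear level, Emb on OT1 array 4, at 66.33 against 129.3 to 146.93 on the other OT1 arrays. S1pr1 (161788_f_at) on HY_high array 3 was at 6.4 against 4.25 to 4.47 on the other HY_high arrays. The other 9 were values just above the lowest one in groups otherwise at 1. With the other 3 arrays tied at 1, any value above 1 exceeds the cutoff. The rate of 1 in 20 therefore does not apply to these 9, and 11 of 33 cannot be set against it. For S1pr1 (101953_at) they were 1.04 on HY_high array 2, 2.57 on HY_low array 2 and 1.76 on OT1 array 2. For Cd44 they were 1.04 on HY_high array 2, 2.46 on HY_low array 2 and 1.48 on OT1 array 4 (103003_i_at), and 1.21 on OT1 array 1 (103004_r_at). For Emb (162068_r_at) they were 1.04 on HY_high array 2 and 1.08 on OT1 array 2. Arrays numbered 2 held 7 of these 9. The share of all values at 1 was 3% on HY_high array 2, 5.18% on HY_low array 2 and 19% on OT1 array 2. It lay between 8.5% and 22.5% on arrays of the other numbers.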

How the results depend on the processing

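The results were computed under 31 alternatives, 21 of them set out at the start and 10 chosen after seeing the data. The number of member probe sets past the threshold stayed at 0 in HY_low against OT1 and in HY_high against OT1 under all 31. In HY_high against HY_low it was 0 and became 1, Emb, with the replicate block, with the block and only the 2 groups compared, with the block and quantile normalization, and with the block without number 1, and it was 0 under the other 27. The range was 0 to 0 when single arrays or numbers were left out without the block, and 0 to 1 with the block when numbers were. The pairing changed no other member call. Emb in HY_high against HY_low kept its direction under all 31, with log2 differences from 1.11 to 1.56 and adjusted p from 0.0155 to 1. No array left out could have reversed the direction, since these groups did not overlap. The filter, variance trend, block and groups fitted cannot change a difference of group means. Ccr7 in HY_high against HY_low ranged from -1.70 to -0.91 and Klf2 from -1.08 to -0.10, its highest without HY_low array 1. Ccr9 ranged from -1.04 to -0.04 in HY_high against HY_low, from 0.53 to 2.15 in HY_low against OT1 and from 0.00 to 1.58 in HY_high against OT1. In all, 3 differences changed sign, with adjusted p at 0.878 or above. S1pr1 in HY_low against OT1 was 0.004 with quantile normalization, with and without the block, 0.002 with scaling to one median, and 0.02 to 0.58 when arrays or numbers were left out (0.25, 0.019, 0.317, 0.205, 0.577 and 0.234, the lowest of all such values being -0.643). Klf2 in HY_low against OT1 was -0.41 without HY_low array 1, -0.25 without OT1 array 2 and -0.10 without OT1 array 4, with up to 0.574 without OT1 array 1. Cxcr4 in HY_high against HY_low was 0.059 without HY_high array 3 or 4, and at the lowest -0.382 without HY_low array 3. Cxcr4 had no value under some alternatives, where it fell below the filter or the floor. Over all probe sets the number past the threshold was 2, 2 and 15 in HY_high against HY_low, HY_low against OT1 and HY_high against OT1, and ran from 1 to 31, 2 to 11 and 3 to 135 over the alternatives. The cause was not tested. Signals near the lowest value limit Cxcr4, S1pr1 and Cd44.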
